A study of Mus musculus with 16 samples.

Results

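The genes examined were those of the 4 Hox clusters, in tooth germs of mouse embryos. All probe sets of the array whose only gene symbol was *Hox* followed by a, b, c or d and a number were taken, which gave 37 genes with 1 probe set each, of 19938 genes in all. *Hoxb8* shared its probe set with *Hoxb7* and was therefore not among the members. The tooth germs were microdissected from C57Bl6 embryos at E14.5 and fell into 3 groups, with 8 samples of mandibular molars, 4 of lower incisors and 4 of maxillary molars. Each sample was RNA from a pool of 4 germs on 1 array, and no genotype or treatment separated the groups. A germ holds both dental epithelium and the mesenchyme around it, so in these bulk samples fewer cells of a type and less RNA per cell cannot be told apart. The values are log2 signals after RMA, a method that corrects background, brings the arrays to 1 distribution and summarizes the probes of a probe set.

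Hox genes encode homeodomain transcription factors that give cells their position along the body axis. They lie in clusters, and within a cluster the genes with low numbers are switched on earlier and further toward the head than those with high numbers, in the order in which they stand on the chromosome. Their most anterior territories are the hindbrain and the second pharyngeal arch, whereas the first arch, from which the jaws and most dental mesenchyme come, is classically regarded as free of Hox transcripts, and forced Hox expression there disturbs jaw formation. The study also cites later work that found some Hox genes expressed in particular tissues of the tooth bud.

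The samples were close to one another in depth of signal, with a median over all probe sets of 6.80 to 6.98 in mandibular molars, 6.84 to 6.99 in lower incisors and 6.86 to 6.91 in maxillary molars. An array gives no molecule count, so a scale for low signal was taken from 1178 olfactory and vomeronasal receptor genes, which serve mainly in sensory neurons of the nose. Their mean signals had a median of 4.17, a 95th percentile of 5.86 and a 99th percentile of 6.66. The signals of different probe sets also depend on their probes, so a place on this scale describes a probe set and does not order genes by transcript number. The mandibular molars were not uniform, in a way that the labels do not name: over all probe sets samples 5 to 8 correlated with the maxillary molars at a median of 0.9942 and with the incisors at 0.9861, samples 1 to 4 at 0.9885 and 0.9902 with the same groups, against 0.9898 between 1 to 4 and 5 to 8. Both comparisons are therefore also given with mandibular molars 1 to 4 alone and with 5 to 8 alone. No label places either subset with another tooth type, and a subset compared with the group it resembles more is bound to give fewer calls. The study left out 1 incisor sample for a problem in washing without identifying it, and all 4 were used here. Of the marker lists, 9 of 9 skeletal muscle markers were measured, and their mean level was 7.08 to 8.21 in mandibular molars, 8.09 to 8.35 in lower incisors and 6.30 to 6.84 in maxillary molars.

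The Hox genes lay in the lower part of the signal range in every tooth type. Their means over the 16 samples ran from 4.37 to 7.24 with a median of 5.65, and 0 of 37 reached the median of all genes, 7.51. None was below the median of the receptor genes, 10 were above the receptors' 95th percentile and 3 above the 99th. The signals were also steady: the SD of a Hox gene over the 16 samples was 0.07 to 0.30 with a median of 0.13, against a median of 0.13 for the 7470 genes of the same signal range and of 0.10 for the receptors. The highest and the lowest sample of a gene differed by 0.30 to 1.00 (median 0.47), so that no Hox gene spanned more than 1 log2 unit over the 3 tooth types.

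**Figure D1:**
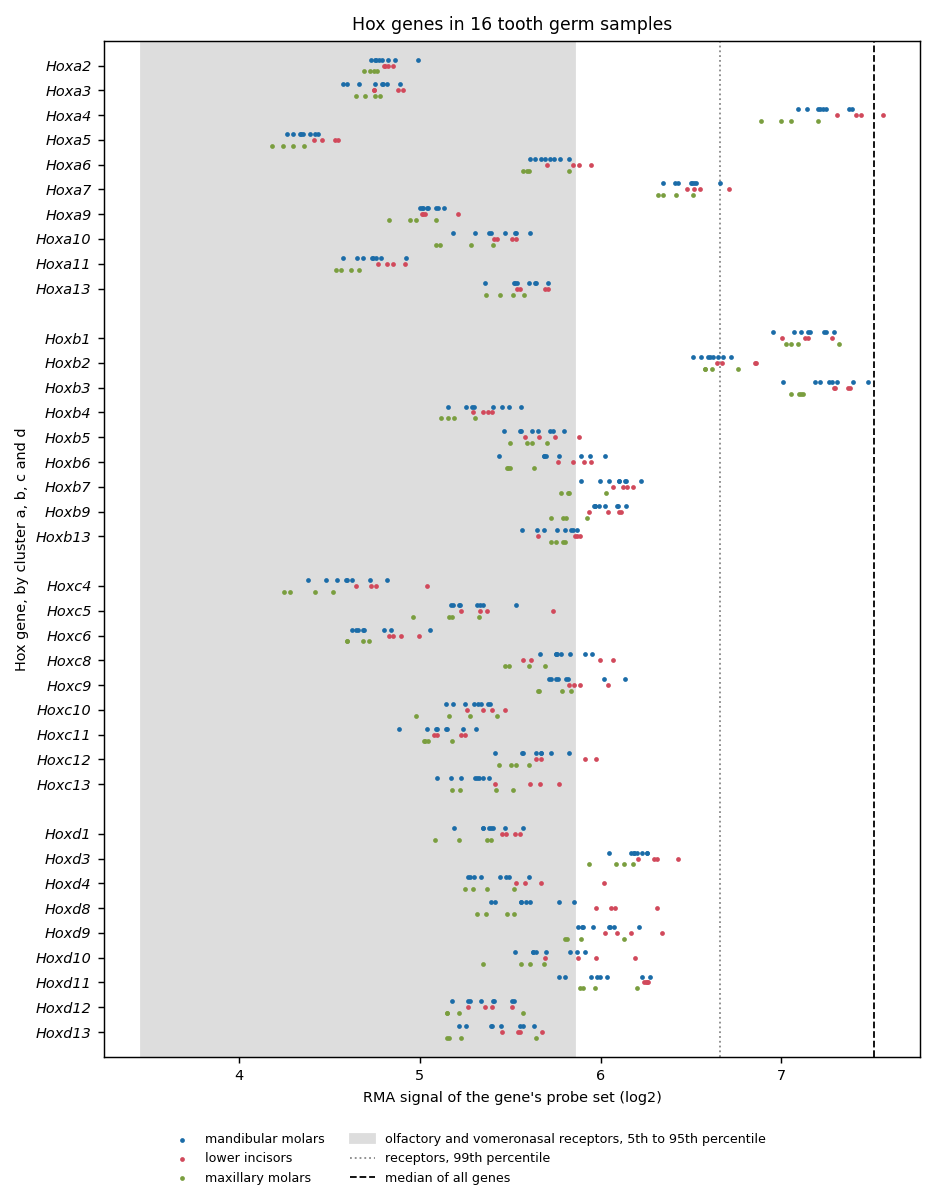
RMA log2 signal (x axis) of the 37 Hox genes (y axis, by cluster) in each of 8 mandibular molar, 4 lower incisor and 4 maxillary molar samples, with 1 point per sample. The grey band is the 5th to 95th percentile of 1178 olfactory and vomeronasal receptor genes, the dotted line their 99th percentile and the dashed line the median of all genes. Of the gene means, 27 lie inside the band and 10 to its right.

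The genes above the limit of low signal came from all parts of the body axis. The limit was set as the 95th percentile of the receptors' group means, at 5.85 in mandibular molars, 5.98 in lower incisors and 5.75 in maxillary molars. Above it were 10 genes in mandibular molars, 11 in lower incisors and 11 in maxillary molars. The same 10 genes were above it in each tooth type, namely *Hoxb3*, *Hoxa4*, *Hoxb1*, *Hoxb2*, *Hoxa7*, *Hoxd3*, *Hoxd11*, *Hoxb7*, *Hoxd9* and *Hoxb9*. *Hoxd8* was added in the incisors, and *Hoxb13*, a gene of the tail and the prostate, in the maxillary molars, where the limit was lowest. The mean of *Hoxb13* was 5.75 ± 0.11 in mandibular molars, 5.82 ± 0.11 in lower incisors and 5.77 ± 0.04 in maxillary molars. *Hoxb9*, the lowest of the 10 shared genes by mean, was above 28.3% of all genes, so most genes of the array were above the limit.

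Of the anterior genes, *Hoxb1*, which marks the fourth segment of the hindbrain, had 6.96, 7.15 and 7.29 in mandibular molars (lowest, median and highest), 7.13, 7.15, 7.28 and 7.00 in lower incisors and 7.06, 7.03, 7.32 and 7.09 in maxillary molars. The 3 groups overlapped nearly completely, with means of 7.15 ± 0.11 (SD, n = 8), 7.14 ± 0.11 (n = 4) and 7.12 ± 0.13 (n = 4) in that order. *Hoxb2*, a gene of the hindbrain and the second arch, averaged 6.62 ± 0.07 in mandibular molars, 6.76 ± 0.12 in lower incisors and 6.63 ± 0.09 in maxillary molars. *Hoxb3*, which patterns hindbrain and pharyngeal arches, had 7.01, 7.27 and 7.48 in mandibular molars (lowest, median and highest), 7.37, 7.30, 7.38 and 7.29 in lower incisors and 7.11, 7.12, 7.10 and 7.05 in maxillary molars. For *Hoxb3* the maxillary samples lay below all incisor samples and within the lower part of the mandibular range. *Hoxa2*, the gene that gives the second arch its identity, stayed among the low signals, at 4.73 to 4.99 in mandibular molars, 4.80 to 4.85 in lower incisors and 4.69 to 4.76 in maxillary molars, which is above 76.1% of the receptor genes. *Hoxa3*, needed for thymus and parathyroid, was likewise low, at 4.58 to 4.91 over the 16 samples. Of these 5 genes the 3 of cluster b were above the limit and the 2 of cluster a were not.

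Among the genes of neck and trunk, *Hoxa4*, which shapes neck vertebrae, averaged 7.24 ± 0.10 in mandibular molars (n = 8), 7.43 ± 0.10 in lower incisors (n = 4) and 7.03 ± 0.13 in maxillary molars (n = 4). *Hoxa5*, a gene of the lung and of the border of neck and thorax, had the lowest mean of all members, with 4.27, 4.35 and 4.43 in mandibular molars (lowest, median and highest), 4.46, 4.53, 4.55 and 4.42 in lower incisors and 4.24, 4.36, 4.18 and 4.30 in maxillary molars. Incisors 1 to 3 were above all mandibular molars and incisor 4 within their range, and the gene was too low to be tested. Of the thoracic genes, *Hoxa7* averaged 6.49 ± 0.09, 6.56 ± 0.10 and 6.40 ± 0.09 in mandibular molars, lower incisors and maxillary molars. *Hoxc4* (4.59) and *Hoxa11* (4.72), a gene of forearm and uterus, were with *Hoxa5* and *Hoxa3* (4.75) the 4 lowest by mean.

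By cluster, the 9 genes of Hoxb on chromosome 11 had a median of 5.98 and 5 members above the receptors' 95th percentile. The 9 genes of Hoxd on chromosome 2 had a median of 5.68 with 3 above, the 10 of Hoxa on chromosome 6 a median of 5.21 with 2 above, and the 9 of Hoxc on chromosome 15 a median of 5.29 with none above. By position in the cluster, the 11 genes of paralogue groups 1 to 4 had a median of 5.46 with 5 above, the 10 of groups 5 to 8 a median of 5.70 with 2 above, and the 16 of groups 9 to 13 a median of 5.49 with 3 above. Every paralogue range and every cluster but Hoxc thus had members on both sides of the limit.

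Promoters of the clusters are rich in CpG, the dinucleotide at which Polycomb and Trithorax complexes are recruited in mammals. RefSeq windows of GRCm38.p6, from 250 bases before to 50 bases after the start of a gene, were matched for 21 of the 37 genes. They held a median of 14 CpG (4 to 45), against 7 over 27004 genes, and a median GC content of 58.0% against 52.7%. At least 10 CpG were present in 14 of 21, against 44.0% of all windows. The letters TGATTNAT, 1 form of the site shared by Hox and Pbx proteins, were searched on both strands. They occurred in 1 of 21 (4.76%), that of *Hoxa2*, against 3.36% of all windows. Other forms of the site were not searched, so the remaining windows are not shown to lack it. Across the 21 genes, which are not independent, the number of CpG and the mean signal had a Spearman correlation of -0.05. Shown are the windows of *Hoxd8*, which differed between tooth types (chr2:74704365-74704664, plus strand, 6 CpG), of *Hoxb1* (chr11:96365508-96365807, plus strand, 10 CpG), which had the highest signal of the genes with a window, and of *Hoxa5* (chr6:52204538-52204837, minus strand, 29 CpG), which had the lowest. Capitals mark CpG, and no start site was measured in these samples.
Hoxd8: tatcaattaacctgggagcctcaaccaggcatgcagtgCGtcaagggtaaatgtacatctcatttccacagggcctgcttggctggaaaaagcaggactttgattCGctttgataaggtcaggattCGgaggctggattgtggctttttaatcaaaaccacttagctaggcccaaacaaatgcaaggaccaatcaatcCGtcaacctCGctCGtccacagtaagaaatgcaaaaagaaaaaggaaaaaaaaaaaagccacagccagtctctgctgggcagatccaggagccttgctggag
Hoxb1: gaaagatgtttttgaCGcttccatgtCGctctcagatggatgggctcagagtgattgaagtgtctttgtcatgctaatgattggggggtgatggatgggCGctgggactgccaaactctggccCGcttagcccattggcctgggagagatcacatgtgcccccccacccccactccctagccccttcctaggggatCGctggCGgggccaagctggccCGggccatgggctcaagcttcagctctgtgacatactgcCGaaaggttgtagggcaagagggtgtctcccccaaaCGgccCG
Hoxa5: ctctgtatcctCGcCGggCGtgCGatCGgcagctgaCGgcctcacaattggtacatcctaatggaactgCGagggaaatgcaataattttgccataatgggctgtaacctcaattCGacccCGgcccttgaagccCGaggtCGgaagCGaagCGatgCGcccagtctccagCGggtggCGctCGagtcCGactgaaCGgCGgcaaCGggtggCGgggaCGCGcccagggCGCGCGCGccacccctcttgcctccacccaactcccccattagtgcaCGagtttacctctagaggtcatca

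Mandibular molars and lower incisors differed in 2 Hox genes, *Hoxd8* and *Hoxc13*, both lower in the molars. A gene passed at a Benjamini-Hochberg adjusted p under 0.1 over all probe sets with a fold change above 1.2. Of 37 genes 33 exceeded a log2 signal of 5 in at least 1 sample and were tested, and 0 were higher and 2 lower in the molars. Over all probe sets tested, 2.75% were higher and 2.18% lower, 4.93% in all. These 804 and 637 probe sets became 459 to 1386 and 420 to 1041 with 1 sample left out, moving by over 1.5 times without any 1 of the incisors and without mandibular molar 2. At an unadjusted p under 0.05 there were 9 Hox genes, all lower in the molars, and 18.4% of all probe sets in either direction.

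*Hoxd8*, a gene of the middle of its cluster that is active in trunk and limb, had 5.39, 5.57 and 5.85 in mandibular molars (lowest, median and highest), against 5.97, 6.08, 6.31 and 6.06 in lower incisors. Every molar sample was below every incisor sample. The means were 5.59 ± 0.16 (SD, n = 8) and 6.11 ± 0.14 (SD, n = 4), and the difference was -0.51 on the log2 scale (standard error 0.09, limma, adjusted p = 0.00766). The maxillary molars, at 5.48, 5.37, 5.31 and 5.52, were below the incisors as well. *Hoxc13*, which controls keratin genes of hair and nail, had 5.09, 5.31 and 5.38 in mandibular molars (lowest, median and highest), against 5.67, 5.42, 5.77 and 5.61 in lower incisors. These groups did not overlap either, though incisor 2 came close to the highest molar samples. The means were 5.27 ± 0.10 and 5.62 ± 0.15, a log2 fold change of -0.34 ± 0.07 (standard error, limma, adjusted p = 0.0229). Both means of *Hoxc13* were under the limit of low signal, 5.85 in mandibular molars and 5.98 in incisors. The mean of *Hoxd8* was above it in incisors only. Groups that did not overlap, with every molar sample lower, made up 1.77% of all probe sets, and those with every molar sample higher, of which there was no Hox gene among the 33 tested, 1.92%.

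With mandibular molars 1 to 4 only, the subset that resembled the incisors more, neither gene passed, with log2 fold changes of -0.41 for *Hoxd8* (limma, adjusted p = 0.134) and -0.38 for *Hoxc13* (adjusted p = 0.155). In that comparison 0.948% of all probe sets passed as higher and 0.832% as lower in the molars, and 3 Hox genes had an unadjusted p under 0.05, all lower. Against incisors, mandibular molars 5 to 8 were lower in 3 Hox genes, *Hoxd8* (-0.62), *Hoxc13* (-0.31) and *Hoxd11* (-0.37), where 8.88% of all probe sets were. Markers of other tissues also separated these groups. The mean level of the 5 cartilage markers was 7.22 to 7.43 in mandibular molars and 7.49 to 8.94 in incisors, and 4 of 5 passed as lower in molars, among them *Acan* (6.15 ± 0.14 against 8.42 ± 1.40) but not *Sox9* (9.51 ± 0.35 against 9.68 ± 0.54). Of 9 skeletal muscle markers 5 were lower in the molars, with a median log2 fold change over the list of -0.82, and of 5 mast cell markers 3 were lower and 1 higher. With mandibular molars 1 to 4 only, 1 cartilage marker, not *Acan*, and 1 muscle marker passed. With all 8 mandibular molars, the cartilage count was 2 in place of 4 with low-signal centring and with the methods' t-test. Of 7 dental mesenchyme markers 4 were higher in the molars, with a mean level of 10.65 to 11.01 in mandibular molars and 9.66 to 10.02 in incisors. The median log2 fold change over that list was 0.38. It holds *Barx1*, *Lhx6* and *Lhx8*, which the study lists as enriched in molars, so it does not measure the amount of mesenchyme alone. Of 3 Schwann cell and glia markers 2 were lower (0 with mandibular molars 1 to 4 only), and of 5 neuron markers 1, *Stmn2* (-1.78). No marker of epithelium, endothelium or blood and leukocytes passed with limma, with 1 of 6, 2 of 5 and 2 of 7 of them at an unadjusted p under 0.05. In incisors 1 and 4, where the cartilage level was 8.84 and 8.94, *Hoxd8* had 5.97 and 6.06, and in incisors 2 and 3, where it was 7.49 and 7.85, *Hoxd8* had 6.08 and 6.31. The part of these tissues in the Hox differences was not tested.

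In what follows a change is a log2 fold change and SE its standard error. *Hoxd4*, *Hoxd11* and *Hoxd10* were lower in the molars on average but did not pass. *Hoxd4*, of hindbrain and neck, had 5.27, 5.39 and 5.61 in mandibular molars (lowest, median and highest), against 5.53, 5.67, 6.02 and 5.58 in lower incisors (change of -0.30 with an SE of 0.09, limma, adjusted p = 0.116). The fold change of *Hoxd4* was above 1.2, and its adjusted p fell under 0.1 without incisor 4 (-0.34) and without mandibular molar 8 (-0.33). It also did with all 3 groups in 1 fit (-0.30, limma, adjusted p = 0.0647) and with the mean of a gene's probe sets (-0.30, limma, adjusted p = 0.0602). The latter left every Hox signal unchanged, as each gene had 1 probe set, and tested 17289 genes in place of 29258 probe sets. *Hoxd11*, which acts in the forearm, had 5.77, 5.99 and 6.28 in mandibular molars, against 6.26, 6.26, 6.24 and 6.25 in lower incisors, whose SD was 0.01 (change of -0.25 with an SE of 0.09, limma, adjusted p = 0.171). *Hoxd10*, a gene of lumbar motor neurons, averaged 5.72 ± 0.14 in mandibular molars and 5.93 ± 0.21 in incisors. Over the cluster, the sample medians of the 9 Hoxd genes were 5.41 to 5.64 in mandibular molars, 5.69 to 6.19 in lower incisors and 5.37 to 5.57 in maxillary molars, so the incisors lay above all molars. The medians of Hoxc overlapped, at 5.18 to 5.38 in mandibular molars, 5.33 to 5.74 in incisors and 5.16 to 5.43 in maxillary molars. Hoxa and Hoxb overlapped between mandibular molars and incisors too.

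**Figure D2:**
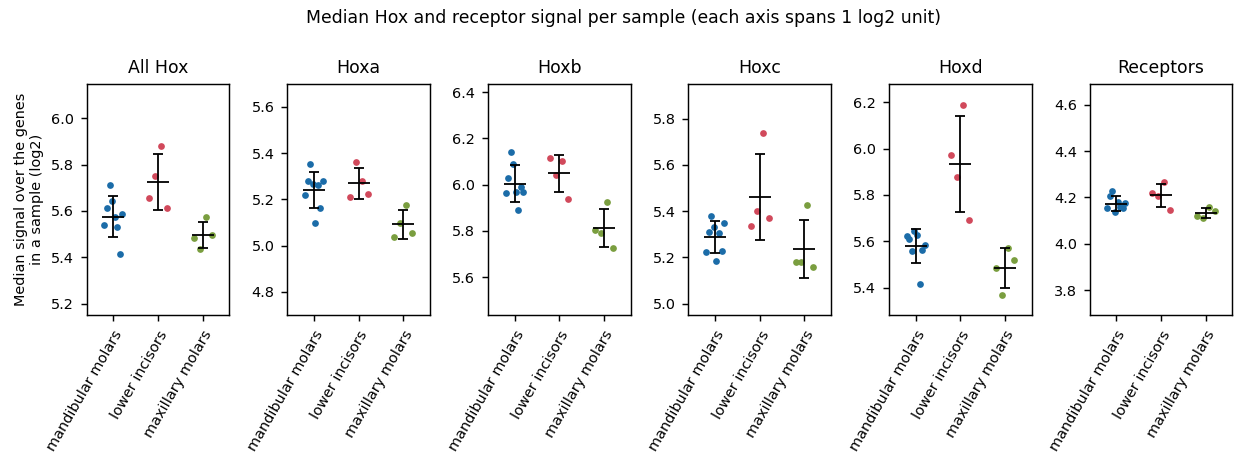
Median log2 signal (y axis) over all 37 Hox genes, over each cluster and over 1178 receptor genes, with 1 point per sample of mandibular molars, lower incisors and maxillary molars, and bars for the mean ± SD of the samples. The Hoxd medians of the 4 incisor samples, 5.69 to 6.19, lie above those of the 12 molar samples, whereas the receptor medians of all groups lie between 4.11 and 4.27.

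With all 8 mandibular molars the direction was shared by nearly all members, but the changes were small, and low signals in general moved the same way. Over all 37 genes with no filter, 35 were lower in mandibular molars than in incisors, with a median log2 difference of -0.10. The receptor genes had 75.1% lower and a median of -0.04, against 52.1% and a median of -0.01 over all genes. Of the receptor genes high enough to be tested, 254 of 282 were lower, with a median of -0.09. A gene near a signal of 5 could enter the tests through the group where it was higher. Counts of tested genes can therefore lean toward that direction, and the unfiltered shares do not depend on this. Of the tested Hox genes 31 of 33 were, with a median of -0.10. The 12992 tested probe sets within the Hox range of signal had a median of -0.06 and 69.2% below 0. With each sample centred on its receptor median, 26 of 32 tested Hox genes were lower, with a median of -0.06. Of the tested receptor genes 212 of 274 were, with a median of -0.05. The same 2 Hox genes passed after centring, *Hoxd8* at -0.48 and *Hoxc13* at -0.31. Before centring, the 2 Hox genes above 0 were *Hoxb1* (0.01) and *Hoxb4* (0.01). Their signs turned under several settings, and their standard errors, 0.07 each, were larger than the differences. With mandibular molars 1 to 4 only, 24 of 33 tested Hox genes were lower, with a median of -0.05. In cluster b 6 of 9 were higher in that setting, with a median of 0.01. Of the tested receptor genes 239 of 276 were lower there, with a median of -0.08. By sample, the Hox median was 5.58 ± 0.09 in mandibular molars (n = 8), 5.72 ± 0.12 in incisors (n = 4) and 5.50 ± 0.06 in maxillary molars (n = 4).

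Between mandibular and maxillary molars no Hox gene passed, of 32 tested, in either direction. This comparison shares its mandibular samples with the previous one. Over all probe sets tested 1.01% were higher and 1.18% lower in the mandibular molars. These 293 and 342 probe sets became 99 to 405 and 165 to 436 with 1 sample left out, moving by over 1.5 times without any 1 of the maxillary molars and without mandibular molar 3. At an unadjusted p under 0.05 there were 8 Hox genes, against 17.1% of all probe sets in either direction, and the methods' t-test at the same thresholds also gave 0.

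The nearest was *Hoxb9*, a thoracic gene, with 5.96, 6.01 and 6.14 in mandibular molars (lowest, median and highest), against 5.81, 5.79, 5.92 and 5.73 in maxillary molars. All mandibular samples were above all maxillary ones, as in 2.08% of all probe sets (the reverse held in 2.02% and in no Hox gene tested), and the adjusted p was under 0.1 (change of 0.22 with an SE of 0.05, limma, adjusted p = 0.0745), but the fold change stayed under 1.2. *Hoxc8*, which acts in motor neurons of the forelimb level, had 5.66, 5.77 and 5.95 in mandibular molars, against 5.47, 5.50, 5.60 and 5.69 in maxillary molars (change of 0.23 with an SE of 0.06, limma, adjusted p = 0.102). *Hoxb6* had 5.44, 5.74 and 6.03 in mandibular molars, against 5.49, 5.48, 5.63 and 5.50 in maxillary molars (change of 0.24 with an SE of 0.09, limma, adjusted p = 0.237). The mandibular samples of *Hoxb6* reached below all maxillary ones as well as above them. *Hoxc8* passed without maxillary molar 4 (0.28) and *Hoxb6* without mandibular molar 8 (0.29). *Hoxb7*, at 6.08 ± 0.10 and 5.86 ± 0.11, and *Hoxa4*, at 7.24 ± 0.10 and 7.03 ± 0.13, had adjusted p of 0.154 and 0.203. *Hoxd8* differed by 0.17 (SE 0.09, adjusted p = 0.317) and *Hoxc13* by -0.06 (SE 0.07, adjusted p = 0.642).

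The members leaned to the mandibular side as a group, 34 of 37 without a filter, with a median log2 difference of 0.10. The exceptions were *Hoxb2* (-0.02), *Hoxb13* (-0.02) and *Hoxc13* (-0.06), all within their standard errors, and the signs of *Hoxb2* and *Hoxb13* turned under some settings. Of the receptor genes 22.2% were lower in mandibular molars, with a median difference of 0.04, and of all genes 42.2%, with a median of 0.02. Of the receptor genes high enough to be tested, 233 of 263 were higher, with a median of 0.08. Here too a gene near a signal of 5 could enter through the group where it was higher. Of the tested Hox genes 29 of 32 were, with a median of 0.10. Centring on the receptor median left 25 of 32 tested Hox genes higher, with a median of 0.06. It left 178 of 267 tested receptor genes higher, with a median of 0.03. With mandibular molars 5 to 8 only, 26 of 31 tested Hox genes were higher, with a median of 0.07. Of the tested receptor genes 192 of 245 were higher in that setting, with a median of 0.06. Skeletal muscle markers again followed, with 7 of 9 higher in mandibular molars and a median log2 fold change of 0.88. Their part in the Hox values was not tested.

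**Figure D3:**
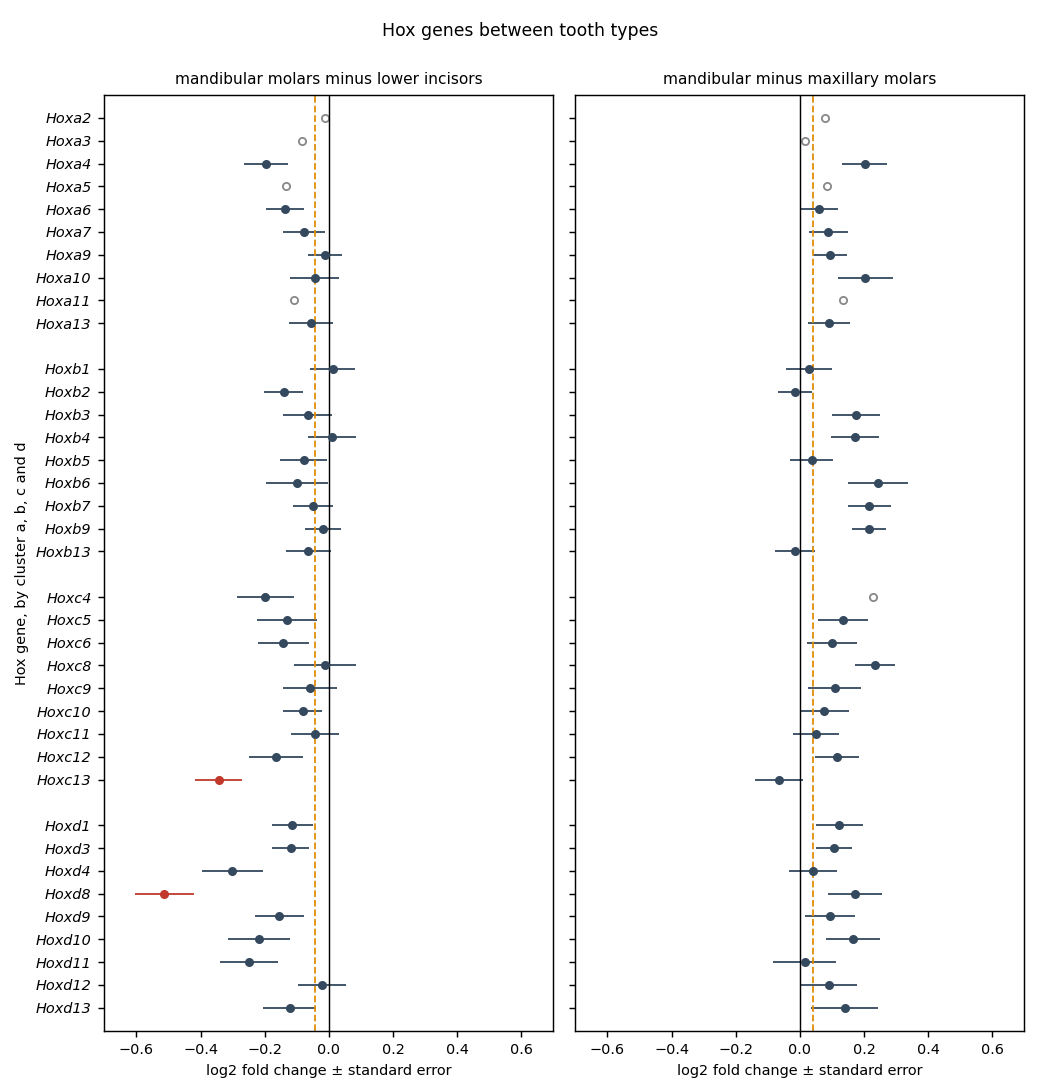
Log2 fold change (x axis) of each Hox gene (y axis, by cluster) between mandibular molars and lower incisors (left) and between mandibular and maxillary molars (right), with bars for the standard error. Red points are the 2 genes that passed, *Hoxd8* and *Hoxc13*, open points are genes too low to be tested, shown without an error, and the dashed line is the median difference of the receptor genes, -0.04 on the left and 0.04 on the right.

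The mandibular samples also differed among themselves. Between mandibular molars 1 to 4 and 5 to 8, which are labelled as the same tooth, 1 of 32 tested Hox genes passed, *Hoxb6*, at 5.91 ± 0.11 and 5.63 ± 0.13 (n = 4 each, change of 0.28 with an SE of 0.08, limma, adjusted p = 0.0732), where 4.49% of all probe sets were higher and 7.29% lower. That call was lost under 7 of the other settings and without any 1 of mandibular molars 3, 5, 6, 7 and 8. In *Hoxb6*, *Hoxb7*, *Hoxd1* and *Hoxc11* every sample of 1 to 4 was above every sample of 5 to 8, as in 8.24% of all probe sets. The median difference over the 37 genes was 0.07, against 0.01 for the receptors. Skeletal muscle markers were higher in 9 of 9 (median 0.40, 2 passed) and epithelial markers lower in 6 of 6 (median -0.35, 0 passed with limma, 4 at an unadjusted p under 0.05) in samples 1 to 4. The part of these tissues was not tested. Set against the maxillary molars on their own, mandibular molars 1 to 4 were higher in 5 Hox genes, *Hoxb6* (0.38), *Hoxa10* (0.29), *Hoxb7* (0.29), *Hoxd8* (0.28) and *Hoxa4* (0.27), where 8.48% of all probe sets were, and mandibular molars 5 to 8, the subset that resembled the maxillary molars more, in 0 of 31 tested with limma, where 0.54% were higher and 0.743% lower and 2 Hox genes had an unadjusted p under 0.05.

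**Figure D4:**
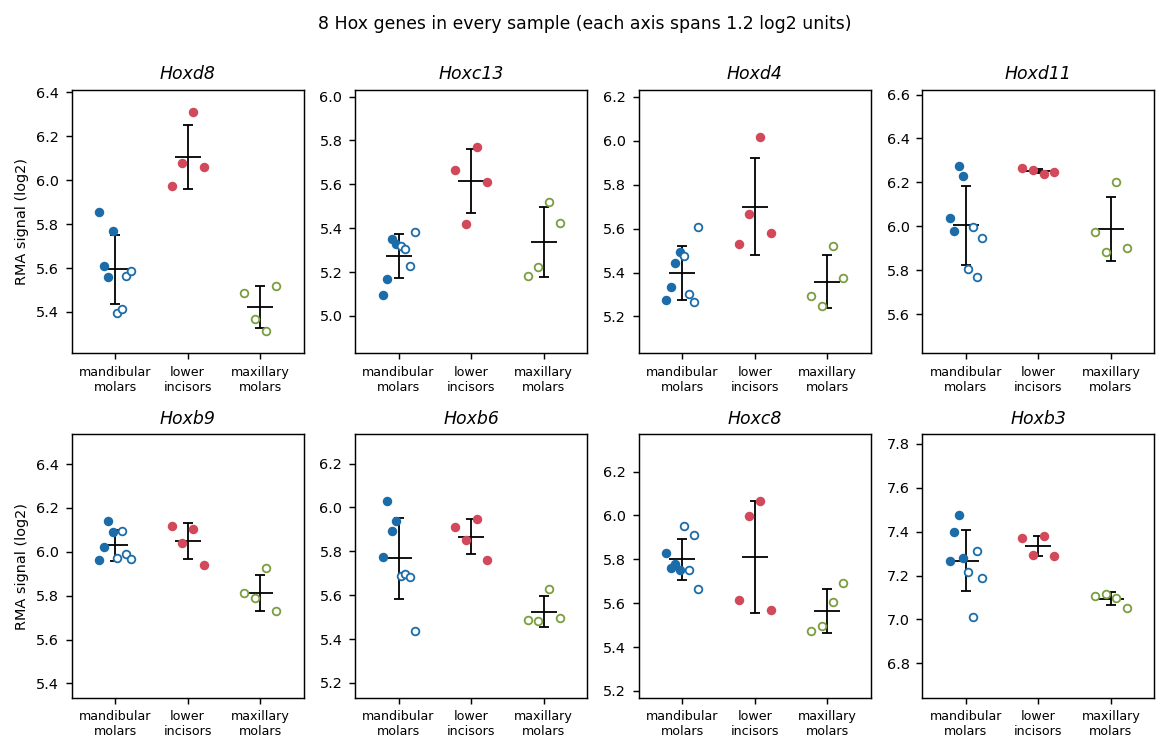
Log2 signal (y axis) of 8 Hox genes in every sample of mandibular molars, lower incisors and maxillary molars (x axis), with bars for the mean ± SD. Filled points are incisors and mandibular molars 1 to 4, and open points are maxillary molars and mandibular molars 5 to 8. *Hoxd8* and *Hoxc13* separate incisors from mandibular molars, while for *Hoxb6* the filled and the open mandibular points stand apart.

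Genes that work with Hox proteins or control the clusters were well within the measurable range. Hox proteins bind DNA together with homeodomain proteins of the TALE class, Pbx and Meis. All 8 TALE genes measured of a list of 9 were above the limit of low signal in each tooth type, with a median of 8.68. Most genes of the array were above that limit. *Pbx3* passed as higher in mandibular molars, at 11.23 ± 0.09 against 10.90 ± 0.11 in incisors (change of 0.34 with an SE of 0.06, limma, adjusted p = 0.0107). *Meis2* averaged 11.35 ± 0.30 in mandibular molars and 10.97 ± 0.19 in incisors (adjusted p = 0.21), and *Meis1* 8.81 ± 0.27 and 9.29 ± 0.23 (adjusted p = 0.113). With mandibular molars 1 to 4 only, *Pbx3* (0.29) did not pass and *Meis2* (0.63) did. Between mandibular and maxillary molars 0 of 8 passed with limma, with 2 at an unadjusted p under 0.05.

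Of 26 genes that open or close the Hox clusters or switch on single members, 24 were measured. All 24 were above the limit of low signal, as most genes of the array were, with a median of 9.76. They include Polycomb genes such as *Ezh2*, whose product methylates histone H3 in silent clusters, at 11.40 ± 0.04 in mandibular molars, 11.37 ± 0.04 in lower incisors and 11.43 ± 0.02 in maxillary molars. *Egr2*, which drives *Hoxa2* and *Hoxb2* in the hindbrain, was the 1 gene of the list that passed, at 8.41 ± 0.58 in mandibular molars and 6.40 ± 0.41 in incisors (change of 2.01 with an SE of 0.29, limma, adjusted p = 0.00181). Its targets in the hindbrain had 4.81 ± 0.08 and 4.82 ± 0.02 for *Hoxa2* and 6.62 ± 0.07 and 6.76 ± 0.12 for *Hoxb2* in mandibular molars and incisors. In maxillary molars *Egr2* had 8.28 ± 0.25, and 0 of 24 passed between the molars with limma, with 2 at an unadjusted p under 0.05.

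The neighbours of the clusters and the relatives of Hox genes were mixed. The 12 genes that flank the clusters had means from 5.21 to 11.41. Of them 10 were above the limit, as most genes of the array were. *Atp5g3* and *Mtx2*, housekeeping neighbours of the Hoxd cluster, averaged 11.45 ± 0.07 and 10.17 ± 0.22 in mandibular molars and 11.39 ± 0.08 and 10.03 ± 0.25 in incisors, whereas *Evx2*, the homeobox gene at the end of Hoxd, had 7.04 ± 0.11 and 7.22 ± 0.10. With limma 0 of 12 passed in either comparison, with 3 at an unadjusted p under 0.05 in each. Of 15 ParaHox and other Hox-like genes, 11 were above the limit in mandibular molars, 10 in incisors and 11 in maxillary molars, with a median of 6.33. *Meox2*, a gene of somites and limb muscle, passed in both, at 9.31 ± 0.39 in mandibular molars, 8.32 ± 0.21 in incisors and 8.52 ± 0.17 in maxillary molars. Against maxillary molars it did not pass with mandibular molars 5 to 8 only (0.73) or with the methods' t-test. *Cdx4*, an inducer of posterior Hox genes, was too low to be tested, at 4.01, and none of the other 13 passed.

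Homeobox genes of the jaws had higher signals and more of the calls. All 18 measured of a list of 21 were above the limit, as most genes of the array were, with a median of 9.94. Of them 8 passed as higher and 3 as lower in mandibular molars than in incisors, where 0 and 2 of 33 tested Hox genes did. *Barx1*, a molar gene of the mesenchyme, had 11.31 ± 0.12 in mandibular molars and 8.25 ± 0.44 in incisors (log2 fold change 3.06), and *Alx1*, of the frontonasal mesenchyme, 6.92 ± 0.19 and 11.33 ± 0.36 (-4.41). Between mandibular and maxillary molars 2 were higher and 5 lower (2 and 3 with mandibular molars 5 to 8 only), with *Dlx6*, which marks the lower jaw, at 9.14 ± 0.24 and 7.71 ± 0.13 (change of 1.43 with an SE of 0.12, limma, adjusted p = 8e-05). No Hox gene reached a log2 fold change of 1 in either comparison.

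**Figure D5:**
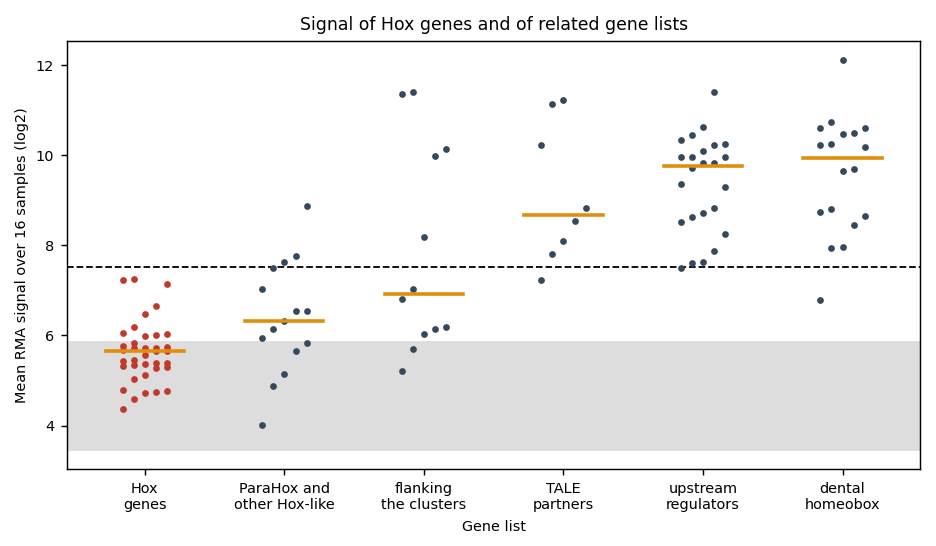
Mean log2 signal over the 16 samples (y axis) of each measured gene of 6 lists (x axis), with 1 point per gene and an orange bar at the list's median. The grey band is the 5th to 95th percentile of the receptor genes and the dashed line the median of all genes. The Hox genes (median 5.65) stay under the dashed line, and the dental homeobox genes (median 9.94) lie above the band.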

How the data were processed

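Total RNA from pools of 4 tooth germs was hybridized to Affymetrix Mouse Gene 1.0 ST arrays. The authors deposited log2 signals made by RMA in Affymetrix Expression Console 1.1, per the labels and submitters' notes, for 35556 probe sets, of which 21789 carried 1 gene symbol, 1621 several and 12146 none. These values were used as deposited, taking the highest mean among the probe sets of a gene. RMA brings low signals together, which understates changes there. Probe sets above 5 in at least 1 compared sample were fitted in limma (version 3.58.1, R 4.3.3; lmFit, then eBayes), without a block and on the compared groups alone, with Benjamini-Hochberg adjustment over all of them. The filter, thresholds and fold of 1.2 for homeobox genes follow the methods of the study. The study applied them to values processed in Partek, without the incisor sample that it left out. It lists more Hox genes than passed here, both as higher in incisors and as higher in mandibular than in maxillary molars. *Hoxd8* is among those it lists for incisors, and *Hoxc13* is not. The source of the difference was not tested. The procedure was tested on simulated data. Named Hox genes are those that passed, the 8 highest and 3 lowest by mean, the 3 largest changes in each direction, those above the low-signal limit and the anterior genes of clusters a and b. *Hoxa10*, *Hoxc11*, *Hoxd1* and *Hoxd10* fall outside this rule, as do *Hoxa6*, *Hoxa9*, *Hoxd12* and *Hoxd13* in the closing section, and were chosen after their values were seen. The members and gene lists were chosen with earlier results of these data known. The spread behind the p-values is that between the arrays' samples and may be technical, since no source used here says which animals a pool came from. No depth exists for an array, so the number of samples limits the precision. Alternatives were other filters, normalizations, tests, weights, blocks, thresholds and samples left out.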

Additional observations from a re-analysis of the deposited data

Results flagged for a closer look

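In 111 sets of a Hox gene and a tooth type, 8 had a single sample far from the others, by Dixon's criterion, which chance meets in about 1 of 20 sets. In mandibular molars it was *Hoxd3*, at 6.04 in sample 7 against 6.17 to 6.26 in the others. In lower incisors, *Hoxb13* had 5.65 in sample 4 against 5.86 to 5.88, and *Hoxa9* 5.21 in sample 2 against 5.01 to 5.03. The other 5 were high in a maxillary molar sample. *Hoxb6* had 5.63 in sample 3 against 5.48 to 5.50, and *Hoxd12* 5.57 in the same sample against 5.15 to 5.22. *Hoxa6* had 5.83 in sample 2 against 5.57 to 5.60, and *Hoxc11* 5.18 in that sample against 5.02 to 5.05. *Hoxd13* had 5.64 in sample 1 against 5.15 to 5.23. None of the 8 genes with such a sample was *Hoxd8* or *Hoxc13*.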

How the results depend on the processing

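The lower signal of 2 Hox genes in mandibular molars than in incisors became 1 with a filter above 6, and 0 with a fold change above 2, with mandibular molars 1 to 4 only and with a replicate block (which uses mandibular molars 1 to 4, since numbers are shared only there). It was 3 with mandibular molars 5 to 8 only, array weights, the mean of a gene's probe sets and all 3 groups in 1 fit, and 2 to 3 with each sample left out. The mean of a gene's probe sets changed no Hox signal, but tested 17289 genes in place of 29258 probe sets. The count of 0 higher in mandibular than in maxillary molars became 1 with no fold threshold, 5 with mandibular molars 1 to 4 only and 5 with a replicate block, and 0 to 1 with each sample left out, the 1 being *Hoxb6* without mandibular molar 8 and *Hoxc8* without maxillary molar 4. The 1 gene higher in mandibular molars 1 to 4 than in 5 to 8 became 0 with quantile normalization, cyclic loess, median centring, the methods' t-test, array weights, a fold change above 2 and an adjusted p under 0.05, and was 0 to 1 with each sample left out. A limit at a log2 signal of 5 put 31 Hox genes above it in mandibular molars, 31 in incisors and 30 in maxillary molars, and the receptors' 99th percentile 3, 3 and 4.

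Same-numbered samples share only a number: the correlation of their deviations from the group means was 0.08 to 0.51 for incisors and 0.00 to 0.34 for maxillary molars, and not every sample correlated best with its own number.

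Small differences changed sign. *Hoxb1* against incisors was -0.0163 with mandibular molars 1 to 4 only, with the replicate block and with a block that joins mandibular molars 1 to 4 and 5 to 8 each to the tooth type it resembles, and -0.0348 to 0.0579 with a sample left out. *Hoxb4* was -0.00615 with array weights, -0.0302 with mandibular molars 5 to 8 only and -0.0188 to 0.0394 with a sample left out. Against maxillary molars *Hoxb13* was 0.0602 with mandibular molars 1 to 4 only and with the replicate block, and -0.0315 to 0.0117 with a sample left out. *Hoxb2* was 0.0124 in both of those settings, and -0.0349 to 0.0256 with a sample left out. The arrays show low Hox signals only against other probe sets, so a level under the receptors' limit is not an absence of transcript.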

Other observations

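Non-coding transcripts of the clusters were mostly as low as the Hox genes. The microRNA genes *Mir10a* and *Mir10b*, of the Hoxb and Hoxd clusters, averaged 3.71 and 3.62 over the 16 samples, below the receptor median of 4.17. *Mir196a-1*, *Mir196a-2* and *Mir196b* averaged 4.68, 4.37 and 5.58, and *Mir615*, within Hoxc, 7.56, with 7.43 to 7.68 in mandibular molars, 7.49 to 7.90 in lower incisors and 7.27 to 7.49 in maxillary molars. Of the long transcripts, *Hottip*, at the end of Hoxa, averaged 4.23, *Hoxaas2* 5.64 and *Hoxd3os1* 6.03. *Mir196a-2* had 4.38 ± 0.13 in mandibular molars, 4.58 ± 0.17 in incisors and 4.12 ± 0.19 in maxillary molars (SD), and these transcripts were not tested between the groups.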
